A study of Mus musculus with 6 samples.

Results

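The genes described here encode the protein subunits of oxidative phosphorylation, the 5 enzyme complexes of the inner mitochondrial membrane. They were picked by symbol, and 95 of the 51912 genes in the count table matched. Of these, 13 are encoded in mitochondrial DNA (mtDNA) and 82 in the nucleus. The nuclear subunits comprised 36 of complex I, 4 of complex II, 8 of complex III, 18 of complex IV and 16 of complex V. The mtDNA-encoded subunits comprised 7 of complex I, 1 of complex III, 3 of complex IV and 2 of complex V.

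RNA came from C57BL/6J mouse testis at postnatal day 4, from cells sorted as THY1+ and c-KIT-, a surface pattern that enriches spermatogonial stem cells, the cells that maintain the male germ line. Libraries were made by Smart-Seq2, which amplifies full-length cDNA from small amounts of RNA, and the number of cells per library is not given. Wild type animals gave 3 libraries and Bud31-vKO animals another 3. In the Bud31-vKO genotype Bud31, a gene of the splicing machinery, was knocked out with Cre and loxP. The labels name neither the Cre line nor the animals behind each library, and any p-value here reflects variation among the libraries sequenced, part of which may be technical. Columns of the count table are headed C1 to C3 and T1 to T3. By convention C was taken for the control, wild type, and T for the targeted genotype, Bud31-vKO. No label explains the letters, which are therefore kept below.

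Complexes I to IV pass electrons from NADH and succinate to oxygen, and complexes I, III and IV pump protons as they do so. Complex V, the ATP synthase, lets the protons flow back and makes ATP. All complexes but complex II contain subunits from both genomes: the mtDNA-encoded proteins form the hydrophobic membrane core, and the nuclear genes supply the remaining catalytic subunits and a shell of small accessory proteins. Male germ cells of the testis also use their own isoforms of some complex IV subunits.

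Libraries held between 13240704 and 18744466 reads. C3 and T2 stood apart from the others, with 13762 and 12464 genes detected against 18171 to 22300 in the other 4 libraries, so results are also given without them where they differ. Bud31 itself was at 138, 96.8 and 158 CPM (read counts per library scaled to a common size) in C1 to C3 and at 47.2, 67.6 and 80.4 in T1 to T3, a log2 fold change of -1.01 ± 0.39 (SE) that missed the threshold (edgeR quasi-likelihood test, Benjamini-Hochberg adjusted p = 0.9997). Germ cell markers, 12 genes such as Ddx4 and Dazl, summed to between 3425 and 4118 CPM in the C and between 2009 and 2898 CPM in the T libraries. All 6 stromal markers (collagens, Dcn, Lum and Pdgfra) were detected as well, and summed to 10310 to 21650 CPM in the C and 8151 to 14578 CPM in the T libraries. Sertoli cell markers summed to 106 to 272 CPM in the C libraries and to 839, 101 and 230.2 CPM in T1 to T3. Lymphoid markers summed to 5.76 to 51.2 CPM in the C and 78.2 to 209 CPM in the T libraries. How these markers bear on the subunit levels was not tested, and in such bulk samples fewer cells of a type and less RNA per cell cannot be told apart.

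Nuclear subunit genes lie on many chromosomes, and the transcription factors NRF1, GABP and YY1 are known to act at the promoters of a good number of them. Promoters of 300 bases around the annotated start were found for 66 of the 82 nuclear genes in the RefSeq table of GRCm38.p6. The letters GCGCANGCG, a core of the NRF1 motif, occurred on either strand in 20 of the 66 (30.3%), against 7.03% of all 27025 genes with a promoter in the table. The YY1 core AAGATGGC occurred in 9 (13.6%, against 3.19%) and the GABP core CCGGAAGT in 5 (7.58%, against 4.31%). The 27025 genes were taken whether or not they had reads in these libraries, and a background of like level was not compared. The stretches below precede the start of 4 subunit genes of complexes II to IV. The first 3 are shown because the NRF1 letters stand before genes that lay on both sides of 0 in the comparison of T with C, with Sdha below it, and that of Uqcr11 as an example of the GABP letters. Capitals mark the matching letters, and the sequences run 5′ to 3′ along the gene's strand.
Sdhd (NRF1 letters, chr9:50603895-50603954, minus strand): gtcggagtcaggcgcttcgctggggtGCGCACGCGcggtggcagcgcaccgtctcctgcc
Sdha (NRF1 letters, chr13:74350305-74350364, minus strand): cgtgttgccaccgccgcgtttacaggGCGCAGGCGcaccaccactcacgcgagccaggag
Cox6a1 (NRF1 letters, chr5:115349087-115349146, minus strand): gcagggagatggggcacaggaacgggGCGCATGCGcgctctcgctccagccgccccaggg
Uqcr11 (GABP letters, chr10:80406854-80406913, minus strand): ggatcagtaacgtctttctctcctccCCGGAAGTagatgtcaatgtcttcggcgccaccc
The nuclear genes with the NRF1 letters had a median log2 fold change of 0.37 (20 tested, 18 above 0), and those with a promoter lacking them had 0.42 (44 tested, 34 above 0). For the GABP letters the medians were 0.56 with (5 tested, 4 above 0) and 0.36 without them, and for the YY1 letters 0.48 (9 tested, 8 above 0) and 0.36. Of the regulators themselves, Nrf1 was at 92.4, 76.1 and 37.3 CPM in C1 to C3 and at 79.1, 11.7 and 86.7 CPM in T1 to T3. Gabpb1, a partner of the DNA-binding GABPA, was higher in each T library (72.1, 76.5 and 51.7 CPM) than in any C library (36.5, 49.3 and 9.26 CPM), with a log2 fold change of 1.08 ± 0.69 (SE). Hcfc1, a coactivator, had -0.46 ± 0.36. Of the 8 tested genes in the list of such regulators, 3 were above 0 and 5 below, with a median log2 fold change of -0.22.

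No subunit gene passed the test between C and T. Of the 95, all had reads and 90 were tested. The 5 left out by the filter on low counts were mt-Nd4l, mt-Atp8 and the muscle-type subunits Cox6a2, Cox7a1 and Cox8b. edgeR called 0 of the 90 at an adjusted p under 0.05, as it called 0.00% of all 15240 genes tested. DESeq2 called 0 of the 90 and 0.314% of the genes to which it gave an adjusted p. None of the 90 had an unadjusted edgeR p under 0.05, where 1.08% of all genes were higher and 1.82% lower in T at that level.

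On description, the subunit genes lay mostly on the higher side in T. The fitted log2 fold change was above 0 for 73 of 90 (81.1%), against 51.1% of all genes tested. The 11 mtDNA-encoded genes tested were all above 0, with a median of 0.56, and 62 of the 79 nuclear genes were, with a median of 0.38. By complex, the nuclear medians were 0.36 for complex I (27 of 36 above 0), 0.01 for complex II (2 of 4), 0.51 for complex III (7 of 8), 0.56 for complex IV (14 of 15) and 0.31 for complex V (12 of 16). In 8 of the 90 (8.89%) every T library was above every C library, against 4.76% of all genes. These were mt-Nd3, mt-Nd5, mt-Co3, Ndufa3, Ndufb8, Ndufv2, Cox7a2 and Cox7c. In 3 (3.33%) every T library was below every C library, against 6.39% of all genes, Atp5b and Atp5f1 among them.

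**Figure D1:**
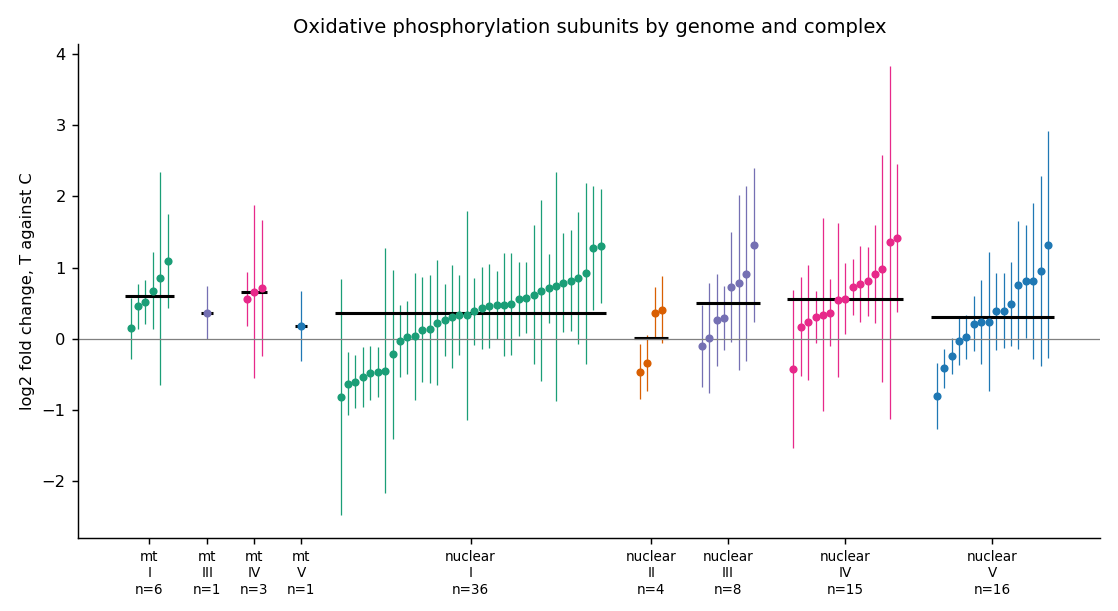
Fitted log2 fold change of T against C for the 90 subunit genes tested, by encoding genome and complex (x axis), with bars for the standard error and a black line at each group's median. Error bars of most genes cross 0. The medians of all groups but complex II lie visibly above 0.

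The count above 0 rested in part on single libraries. Without T1, 43 of 79 nuclear genes were above 0 with a median of 0.04. Without C3, 52 of 80 were, with a median of 0.19. The nuclear median was higher without C1 (0.69) and without T2 (0.67). The mtDNA-encoded median was 0.32 without C3 (9 of 11 above 0) and 0.37 without T2 (8 of 11). Without both C3 and T2 the nuclear count was 63 of 80 with a median of 0.44, while the mtDNA-encoded count was 7 of 11 with a median of 0.15. By complex, leaving out T1 gave nuclear medians of -0.10 for complex I, 0.19 for III, 0.43 for IV and 0.04 for V, and leaving out C3 gave 0.20, 0.25, 0.48 and 0.08. Without C1 they were 0.69, 0.87, 1.02 and 0.58, and without T2 0.66, 0.91, 0.89 and 0.63. The 4 genes of complex II stayed split evenly, with medians between -0.10 and 0.23. Among the 79 nuclear genes, 53 were highest in T1, 40 were lowest in C3 and 26 were lowest in T2. Over all protein-coding genes tested, 18.9% were highest in T1, 32.4% lowest in C3 and 29.3% lowest in T2. The mtDNA-encoded genes followed another order, as 6 of 11 were highest in T2 and 10 of 11 lowest in C3.

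**Figure D2:**
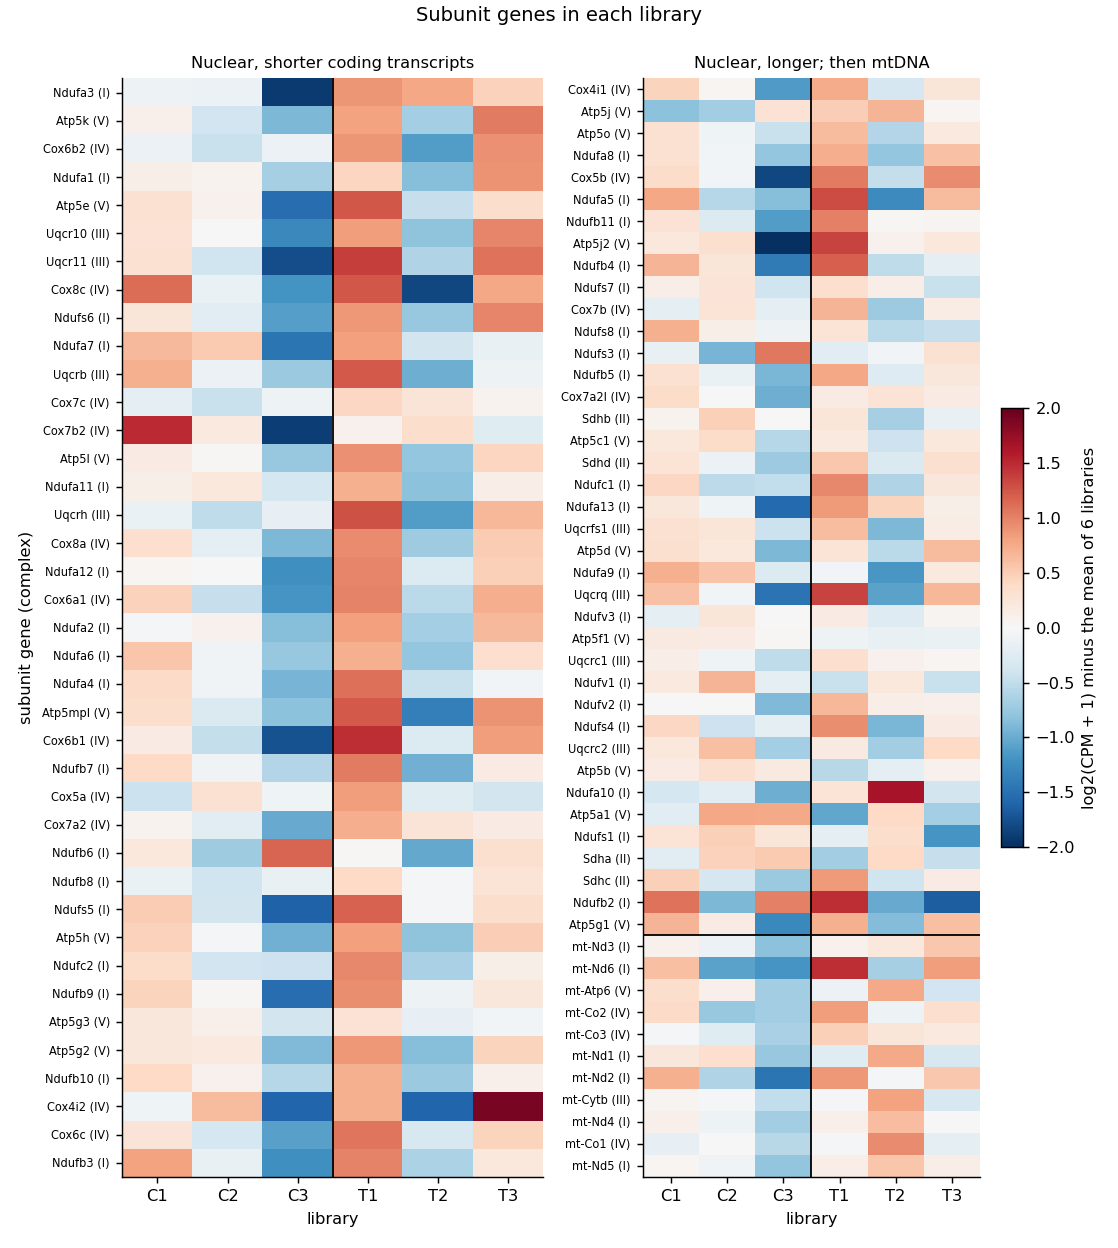
Level of the tested subunit genes in each library, all but one nuclear gene of complex I, as log2(CPM + 1) minus the gene's mean over the 6 libraries, with nuclear genes ordered by length of the coding transcript and mtDNA-encoded genes at the bottom right. Colours stop at 2 in either direction. T1 is red for most of the short nuclear genes, C3 and T2 are mostly blue there, and T2 is red for mt-Co1, mt-Cytb and mt-Nd1.

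The mtDNA-encoded subunits made up 2.30% to 3.79% of the reads in the C libraries and 3.77%, 6.02% and 3.18% in T1 to T3. The nuclear subunits made up 0.790% to 1.14% in C and 0.801% to 1.22% in T. The ratio of the summed CPM of the 2 genomes was 3.33, 3.44 and 2.91 in C1 to C3 and 3.09, 7.51 and 3.15 in T1 to T3. T2 thus lay far above every other library, and the remaining T libraries lay within the range of C. The group means were 3.23 ± 0.28 (SD) in C and 4.59 ± 2.53 in T. T2 was also the library with the fewest genes detected, and the part of that in its ratio was not tested.

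All mtDNA-encoded mRNAs but mt-Nd6 are cut from one long transcript of the heavy strand, yet their levels per length spanned several orders of magnitude in these libraries. Levels per length are given in RPKM, the CPM per kilobase of exon, as means over the 6 libraries. mt-Co1, the catalytic subunit of complex IV, was at 10014 RPKM, mt-Nd1 of complex I at 9498 and mt-Cytb, the cytochrome b of complex III, at 6669. mt-Nd2 (1946), mt-Nd4 (1330), mt-Nd6 (1079) and mt-Nd5 (757) followed. The remaining genes were far below these. mt-Atp6, the proton channel subunit of complex V, was at 116 RPKM, mt-Co2 at 24.9, mt-Co3 at 10.7, mt-Nd3 at 4.83, mt-Nd4l at 0.393 and mt-Atp8 at 0.0604. mt-Atp8 had a single read, in T3.

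**Figure D3:**
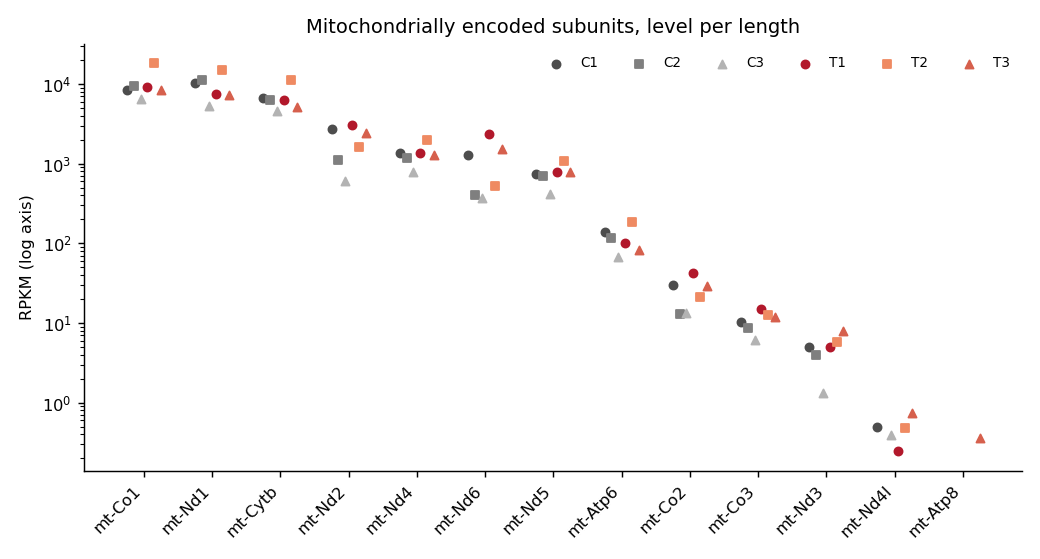
Level per length of the 13 mtDNA-encoded subunit genes in each library (RPKM, log axis), ordered by mean. Libraries with no read of a gene are not drawn. The lowest library of mt-Nd5 (421 RPKM) lies above the highest of mt-Atp6 (185 RPKM).

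Of the low genes, all but mt-Atp8 have near-identical nuclear copies among the annotated transcripts, the only sequences searched. In the annotation of GRCm38, unprocessed pseudogenes on the minus strand of chromosome 1 match the whole coding sequence of mt-Atp6 (Gm10925, 100% identity), mt-Co2 (Gm28661, 100%), mt-Co3 (Gm28437, 100%), mt-Nd4l (Gm10222, 100%) and mt-Nd3 (Gm28438, 99.7%). The first 60 bases of mt-Nd3 and of its copy on GRCm38 show how little separates them, with the only difference over 345 bases in capitals, T3C when counted from the first base of the gene.
mt-Nd3 (chrM:9459-9518, plus strand): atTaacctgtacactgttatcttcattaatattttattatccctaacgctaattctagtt
Gm28438 (chr1:24613060-24613119, minus strand): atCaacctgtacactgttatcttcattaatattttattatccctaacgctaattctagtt
Over the 6 libraries the table gave 7024 reads to mt-Atp6 and 7327 to Gm10925, 1471 to mt-Co2 and 726 to Gm28661, and 740 to mt-Co3 and 632 to Gm28437. The sources used here do not give how the authors' counting treated reads that match several places. The levels of these genes, and their order, are therefore uncertain. mt-Co1 has a copy on chromosome 2 of 97.6% identity, Gm13340, which received 192 reads against 1377010 for mt-Co1. mt-Nd1, mt-Nd2, mt-Nd4, mt-Nd5, mt-Nd6, mt-Cytb and mt-Atp8, the lowest of all, had no annotated copy at 95% identity over 80% of the coding sequence. A copy outside the annotation would not have been found. In mtDNA, mt-Atp8 lies between mt-Co2 and mt-Atp6, whose copies lie close together on chromosome 1. Whether mt-Atp8 has an unannotated copy there was not tested, so its level is uncertain as well.

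Among the 3 most abundant mtDNA-encoded genes the C and T libraries overlapped. mt-Nd1 measured 10014, 10777 and 5083 CPM in C1 to C3 and 7214, 14548 and 6899 CPM in T1 to T3. mt-Cytb measured 7589, 7204 and 5207 CPM in C and 7179, 12752 and 5846 CPM in T. mt-Co1 measured 13009, 14609 and 9914 CPM in C and 14213, 28168 and 12915 CPM in T. In each of them T2 was highest and C3 lowest. Their log2 fold changes were 0.15 ± 0.43 (SE), 0.37 ± 0.37 and 0.56 ± 0.38, and without T2 those of mt-Nd1 and mt-Cytb were -0.28 and -0.024.

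mt-Nd5, the distal proton pump of complex I, was the most abundant mtDNA-encoded gene whose groups did not overlap, with 1374, 1269 and 767 CPM in C and 1459, 1966 and 1454 CPM in T. Its log2 fold change was 0.52 ± 0.31 (SE). mt-Nd4 was at 1900.2, 1643 and 1097 CPM in C and 1899, 2703 and 1756 CPM in T (0.45 ± 0.32). mt-Nd2 and mt-Nd6 had a different profile across the libraries, high in C1, T1 and T3. mt-Nd2 was at 2872, 1160.4 and 639 CPM in C and 3193, 1706 and 2551 CPM in T (0.67 ± 0.54). mt-Nd6 is the one subunit gene on the light strand, and its end overlaps that of mt-Nd5 on the other strand by a few bases. It was at 670.1, 209.6 and 193 CPM in C and 1226, 276 and 785 CPM in T (1.09 ± 0.66). Whether counting used strand is not given, and without strand the reads within that short overlap cannot be told apart. Without strand, reads of the long heavy-strand transcript that cross mt-Nd6, between mt-Nd5 and mt-Cytb, could also have been counted for mt-Nd6. The level of mt-Nd6 is therefore uncertain, and the part of such reads in it was not tested.

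The genes with copies on chromosome 1 were lower still. mt-Atp6 was at 95.1, 80.5 and 45.8 CPM in C and 68.5, 126 and 56.9 CPM in T (0.18 ± 0.49). mt-Co2 was at 20.7, 8.84 and 9.26 CPM in C and 28.7, 14.6 and 20.04 CPM in T (0.71 ± 0.95). mt-Co3 was at 8.02, 6.74 and 4.83 CPM in C and at 11.7, 9.78 and 9.46 CPM in T (0.66 ± 1.21), so its groups did not overlap. Its chromosome 1 copy received 80, 90 and 61 reads in C1 to C3 and 186, 108 and 107 in T1 to T3. mt-Nd3, whose groups parted only narrowly, measured 1.75, 1.38 and 0.466 CPM in C and 1.75, 1.998 and 2.74 CPM in T (0.85 ± 1.49).

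Complex I takes electrons from NADH. Its nuclear core subunits, which carry the flavin and the iron-sulfur clusters, and its accessory subunits lay on different sides of 0, in a grouping made after the values were seen and therefore given with no test. The 7 nuclear core genes had a median log2 fold change of -0.47, with Ndufs7 and Ndufv2 above 0. The 29 accessory genes had a median of 0.46, with 25 above 0. The groups also differ in length. Core genes have coding transcripts of 983 (Ndufs7) to 2661 bases (Ndufs1), while those of most accessory genes are under 1000 bases. Fold changes fell with length among the nuclear subunits, as given below, and the part of length in this split was not tested. Without C3 and T2 these medians were -0.49 and 0.49. Leaving out one library at a time gave -0.56 to -0.33 for the core genes. For the accessory genes it gave 0.02 without T1, 0.21 without C3, 0.71 without T2 and 0.79 without C1.

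Ndufs1, the largest core subunit, was at 186, 216 and 183 CPM in C and at 137, 198 and 67.8 CPM in T, a log2 fold change of -0.54 ± 0.42 (SE). Ndufv1, which binds the flavin and NADH, was at 296, 412 and 225 CPM in C and 189, 298 and 188 CPM in T (-0.47 ± 0.35). The T libraries overlapped C for both. Ndufv2 went the other way, at 53.3, 53.3 and 28.6 CPM in C and 85.7, 58.6 and 57.6 CPM in T (0.58 ± 0.50). For Ndufs3 the table gave 988 reads to the gene and 2220 to Gm12251, a processed pseudogene on chromosome 11 with 98.6% identity, so the level of this core subunit is uncertain.

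Ndufa3, a small accessory subunit, was at 18.67, 18.4 and 4.60 CPM in C and 37.9, 34.8 and 28.1 CPM in T, with no overlap and a log2 fold change of 1.27 ± 0.87 (SE). Ndufb8 also had no overlap, at 31.1, 25.8 and 30.9 CPM in C and 45.5, 33.8 and 41.6 CPM in T (0.46 ± 0.59). Ndufa10 had a large value in one library, at 19.8, 21.7 and 12.5 CPM in C and 31.0, 82.2 and 19.6 CPM in T (1.30 ± 0.80). Ndufb9 was the most abundant nuclear complex I gene per length, at a mean of 274 RPKM. It was at 341, 256 and 86.9 CPM in C and 479.8, 234 and 295 CPM in T (0.56 ± 0.52). C3 was the lowest library for Ndufa3, Ndufa10 and Ndufb9. Ndufa9, an accessory subunit with a reductase fold, was among the 4 accessory genes below 0, at 291, 264 and 147 CPM in C and 171, 78.6 and 203 CPM in T (-0.63 ± 0.45).

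T1 was also the highest library for other abundant accessory genes of complex I. Ndufc2, a membrane-arm subunit with a mean of 220.4 RPKM, was at 199, 117 and 116 CPM in C and 301, 97.3 and 167 CPM in T (0.39 ± 0.47). Ndufb11, encoded on the X chromosome, was at 128, 86.7 and 47.9 CPM in C and 213, 107 and 109 CPM in T (0.71 ± 0.49). Ndufs4, whose loss is a known cause of Leigh syndrome, was at 168, 94.2 and 111 CPM in C and 240.2, 65.9 and 140.2 CPM in T (0.26 ± 0.51). The groups overlapped in all 3. The iron-sulfur core subunit Ndufs8, with a mean of 124 RPKM, was at 253, 166 and 142 CPM in C and 185, 105 and 111 CPM in T (-0.48 ± 0.38). Ndufs7, another of the cluster-bearing core subunits, was near 0 on the log2 scale (0.017 ± 0.51). Several accessory genes had low levels, as Ndufa1, Ndufb6 and Ndufb2 stayed at or under 12.2 CPM in every library, with standard errors of 1.61, 1.66 and 1.73.

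Complex II, succinate dehydrogenase, is shared with the tricarboxylic acid cycle and is wholly nuclear. Its members split evenly. The catalytic flavoprotein Sdha was at 336, 542 and 571 CPM in C and 243, 523 and 286 CPM in T (-0.46 ± 0.38). The iron-sulfur subunit Sdhb was at 93.1, 124 and 89.3 CPM in C and 106, 55.5 and 80.2 CPM in T (-0.34 ± 0.40). Both membrane anchors were above 0. Sdhc was at 179, 102 and 76.4 CPM in C and 232, 96.8 and 144 CPM in T (0.41 ± 0.47). Sdhd was at 389.9, 296 and 195 CPM in C and 469.6, 263 and 401 CPM in T (0.36 ± 0.36). In all 4 the groups overlapped.

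Complex III passes electrons from quinol to cytochrome c. The largest log2 fold changes of the complex were those of small subunits, though that of the small subunit Uqcrb was lower. Uqcr11 was at 17.4, 10.3 and 3.38 CPM in C and 38.1, 8.85 and 30.5 CPM in T (1.31 ± 1.08). Uqcrh, the hinge protein, was at 8.09, 5.97 and 7.86 CPM in C and 23.0, 3.57 and 14.7 CPM in T (0.91 ± 1.23). Uqcrq was at 69.5, 44.5 and 15.95 CPM in C and 119, 21.5 and 74.1 CPM in T (0.72 ± 0.78). In these genes T1 was the highest library, and T2 lay within or below the C range. Uqcrb, the most abundant of the complex per length with a mean of 112 RPKM, was at 140.0, 77.9 and 49.96 CPM in C and 200.1, 42.3 and 79.1 CPM in T (0.26 ± 0.65). The core protein Uqcrc1 (0.29 ± 0.45) and the Rieske iron-sulfur protein Uqcrfs1 (0.01 ± 0.77) were also closer to 0 than Uqcr11, Uqcrh and Uqcrq. Uqcrc1 was at 62.8, 54.0 and 39.7 CPM in C and 72.4, 60.7 and 58.3 CPM in T, and Uqcrfs1 at 31.9, 30.5 and 18.8 CPM in C and 40.0, 13.3 and 28.6 CPM in T. Uqcrc2, the other core protein, was the only nuclear gene of the complex below 0, at 57.6, 75.7 and 30.6 CPM in C and 56.4, 30.4 and 65.9 CPM in T (-0.10 ± 0.57). The catalytic cytochrome c1 gene Cyc1 is named outside the symbols used to pick the subunits. It was lower in every T library, at 329, 438 and 247 CPM in C and 211, 227 and 125 CPM in T, with a log2 fold change of -0.85 ± 0.36 (SE) that did not pass the test.

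Complex IV hands electrons to oxygen. Cox7a2, a small membrane subunit on chromosome 9 (79755361 to 79759878, minus strand, GRCm38), had the smallest unadjusted p of all subunit genes, 0.107 in edgeR's test. It was at 125, 102 and 58.1 CPM in C and 195, 142 and 133 CPM in T, with every T library above every C library and a log2 fold change of 0.73 ± 0.40 (SE). Cox7c, a subunit of like size, was also without overlap, at 9.48, 7.73 and 10.1 CPM in C and 14.98, 13.3 and 11.5 CPM in T (0.54 ± 1.08). Its copies Gm12338 (100% identity), Gm19309 and Gm10012 received 116, 67 and 24 reads beside 991 for Cox7c, so this separation is uncertain. Cox6c was at 176, 115 and 69.3 CPM in C and 311, 118 and 202 CPM in T (0.81 ± 0.48). Cox6a1 was the most abundant subunit of the complex encoded in the nucleus, with a mean of 429 RPKM. It was at 364, 189 and 115 CPM in C and 522, 181 and 434 CPM in T (0.77 ± 0.53). Cox5a, a subunit on the matrix side, was at 16.3, 28.0 and 21.02 CPM in C and 40.8, 18.8 and 17.1 CPM in T (0.23 ± 0.81). The groups overlapped in the last 3 genes. Cox7a2l was at 674, 522 and 262 CPM in C and 581, 631 and 583 CPM in T (0.30 ± 0.37). The T libraries of Cox7a2l lay close together, between C1 and C2. Cox5b was at 70.3, 52.6 and 14.7 CPM in C and 114, 38.8 and 106 CPM in T (0.91 ± 0.69), and a copy of 99.2% identity, Gm11273, received 903 reads beside its 5698.

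For several subunits of complex IV the genome holds a general and a tissue-restricted isoform. Cox4i1, the general isoform of subunit 4, was at 312, 235 and 104 CPM in C and 386, 182 and 270.5 CPM in T (0.37 ± 0.47), while Cox4i2, known from lung, was at 1.82, 3.65 and 0 CPM in C and 3.87, 0 and 10.1 CPM in T. The muscle isoforms were near or at 0. Cox6a2 reached at most 1.04 CPM and Cox8b at most 0.656 CPM. Cox7a1 had no reads in C1 to C3 and T2, 10 in T1 and 5 in T3. For scale, 3 reads correspond to 0.166 to 0.222 CPM, and that limit covers counting error only.

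Testis isoforms were found for 3 subunits. Cox7b2 had a mean of 33.6 RPKM beside 26.4 RPKM for its general partner Cox7b. This order rests on the lengths used, as in mean CPM Cox7b (32.0) was above Cox7b2 (18.2). C1 was the highest library of Cox7b2, at 78.8 RPKM. Cox7b2 was at 42.7, 16.8 and 3.20 CPM in C and 15.5, 18.9 and 12.1 CPM in T (-0.43 ± 1.11), with C1 and C3 at the extremes. Cox7b was at 26.6, 37.1 and 26.7 CPM in C and 49.7, 17.98 and 34.0 CPM in T (0.17 ± 0.69). The order of the pair in CPM also changed between libraries, as Cox7b2 had more CPM in C1 and T2 and fewer in the other 4. Cox8c was at 26.2 RPKM beside 355 RPKM for Cox8a, and Cox6b2 at 2.39 RPKM beside 25.5 RPKM for Cox6b1. Both testis genes were thus well below their general partners. Cox8c was at 20.4, 8.01 and 3.32 CPM in C and 22.4, 1.78 and 15.9 CPM in T (0.34 ± 1.36). Cox8a was at 252, 175 and 106 CPM in C and 382, 120.4 and 283 CPM in T (0.56 ± 0.50). Cox6b1 was at 16.04, 9.94 and 3.55 CPM in C and 41.2, 11.6 and 25.95 CPM in T (1.41 ± 1.04), and Cox6b2 at 1.97, 1.38 and 1.98 CPM in C and 4.97, 0.4995 and 5.10 CPM in T (0.99 ± 1.60). In Cox8c, Cox8a, Cox6b1 and Cox6b2 the values of T1 and T3 stood above those of T2.

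**Figure D4:**
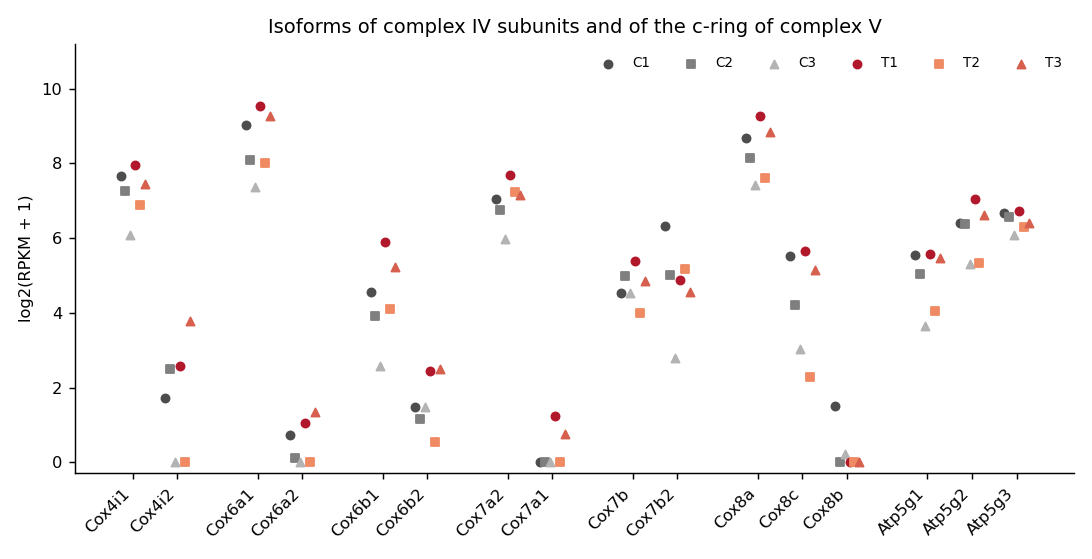
Level per length of isoforms of complex IV subunits and of the c-ring genes of complex V in each library, as log2(RPKM + 1). The general isoforms Cox4i1, Cox6a1, Cox7a2 and Cox8a lie well above their tissue-restricted partners, while Cox7b and Cox7b2 overlap.

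Complex V makes ATP in its F1 head, a ring of alpha and beta subunits around a central stalk. Atp5b, the catalytic beta subunit on chromosome 10 (128083273 to 128090391, plus strand, GRCm38), was the most abundant nuclear subunit gene per length, with a mean of 458 RPKM. It was at 2124, 2375 and 2155 CPM in C and 1287, 1669.6 and 2023 CPM in T, and every T library was below every C library, with a log2 fold change of -0.42 ± 0.27 (SE). The alpha subunit Atp5a1 was at 431, 863 and 850.5 CPM in C and 245, 667 and 315 CPM in T, with overlap (-0.81 ± 0.46), and one of its exons overlaps Haus1 on the other strand. Atp5f1, of the peripheral stalk that holds the head still, was at 337, 332 and 303 CPM in C and 278, 269 and 272 CPM in T (-0.25 ± 0.25), with no overlap. Atp5mpl, a small membrane subunit, was at 44.5, 28.2 and 19.1 CPM in C and 82.7, 12.8 and 65.1 CPM in T (0.81 ± 0.79).

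The gamma subunit Atp5c1, the shaft that turns inside the head, was near 0, at 691, 765 and 398 CPM in C and 679, 443 and 691 CPM in T (-0.03 ± 0.34). Atp5o, which fastens the stalk to the head, was at 361, 274 and 214 CPM in C and 454, 194 and 336 CPM in T (0.21 ± 0.38). Atp5h, another part of the stalk, was at 145, 103 and 53.7 CPM in C and 187, 59.7 and 148 CPM in T (0.38 ± 0.54), and its copy Gm10250 received 2952 reads beside 10174 for Atp5h. In Atp5o and Atp5h T1 was highest, and C3 and T2 were the lowest libraries. Atp5j, whose exons overlap those of Gabpa on the other strand, was at 5.83, 6.41 and 13.7 CPM in C and 15.9, 18.3 and 11.4 CPM in T (0.81 ± 1.10).

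The 5 genes of the F1 head had a median log2 fold change of -0.03 and the other 11 nuclear genes of complex V one of 0.39, with 10 above 0. This grouping was also made after the values were seen. It too goes with length, as the head genes but Atp5e (421 bases) have coding transcripts of 1166 (Atp5c1) to 2471 bases (Atp5a1). Most of the other 11 are under 1000 bases, and the part of length was not tested. The side of the head's median rested on single libraries, as it was 0.05 without C1, 0.14 without C2 and 0.16 without T2 (3 of 5 above 0 in each), and -0.25 without C3, -0.10 without T1 and -0.14 without T3. The median of the other 11 was 0.06 without T1 and 0.12 without C3, and 0.67 without C1 and 0.74 without T2. The head's summed level was 3292, 4045 and 3418 CPM in C and 2283, 2805 and 3081 CPM in T, most of it from Atp5b. Complex V held 43.0%, 49.8% and 54.8% of the summed nuclear CPM of all subunits in C and 34.8%, 44.7% and 44.5% in T. Complex IV held 18.7%, 14.0% and 10.1% in C and 22.8%, 18.1% and 20.9% in T. The ranges of the 2 groups overlapped for both shares.

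The c-ring of complex V, the rotor that the protons turn, is made from 3 genes with the same mature protein. Atp5g3 and Atp5g2 were the higher per length, with means of 88.0 and 78.9 RPKM, and Atp5g1 had 32.6 RPKM. This order rests on the lengths used, as the union of exons is 4912 bases for Atp5g1, 1675 for Atp5g2 and 2181 for Atp5g3. In mean CPM, Atp5g1 (160) was above Atp5g2 (132) and below Atp5g3 (192). Atp5g3 was at 221, 203 and 146 CPM in C and 231, 168 and 182 CPM in T (0.03 ± 0.31). Atp5g2 was at 141, 137 and 64.6 CPM in C and 219.7, 65.8 and 164 CPM in T (0.39 ± 0.52), and Atp5g1 at 226, 158 and 56.9 CPM in C and 229.7, 76.4 and 213 CPM in T (0.24 ± 0.59). The groups of all 3 overlapped. Atp5g1 shares its coding sequence at 99.8% identity with Gm10039, to which the table gave 3310 reads beside 14024 for Atp5g1. In all, 20 of the 82 nuclear genes had such a copy, among them Atp5h, Atp5l, Cox7c and Uqcrb. The 59 tested nuclear genes without one had a median log2 fold change of 0.36, and of 0.02 without T1.

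Subunits differ widely in size, and the median fold change fell with the length of the coding transcript. For 32 nuclear genes under 700 bases the median log2 fold change was 0.62 (30 above 0), for 17 of 700 to under 1000 bases 0.43 (17 above 0), for 13 of 1000 to under 1500 bases 0.17 (8 above 0), and for 17 of 1500 bases or more -0.10 (7 above 0). These classes were set after the values were seen. Leaving out one library at a time gave medians of 0.35 (without T1) to 0.97 (without C1) for the shortest class, 0.083 (without T1) to 0.85 (without C1) for the next, -0.076 (without T1) to 0.35 (without T2) for the third and -0.23 (without T1) to 0.098 (without T2) for the longest. The longest class was also above 0 without C2 (0.084) and without both C3 and T2 (0.085). The medians fell from class to class in each of these sets of libraries. Spearman's correlation of length with log2 fold change across the 79 nuclear genes was -0.50, and it was -0.007 across 13167 protein-coding genes. Of the latter, 11085 were of 1500 bases or more, against 17 of the 79. The correlations are thus over unlike spreads of length and cannot be set against each other. The genes share the same 6 libraries and are not independent, so no p is given.

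All protein-coding genes in the same length classes had a like order of medians: 0.55 for 289 genes under 700 bases (76.5% above 0), 0.21 for 543 genes of 700 to under 1000 bases (63.4%), 0.05 for 1250 genes of 1000 to under 1500 bases (52.6%) and -0.03 for 11085 genes of 1500 bases or more (48.6%). The classes include 36, 19, 16 and 19 subunit genes. The subunits' median was above that of all protein-coding genes in the 3 shorter classes and below it in the longest, and these differences were not tested. In both classes under 1000 bases it stayed above without any one library and without both C3 and T2. In the class of 1000 to under 1500 bases it was below without C1 (0.14 against 0.21) and without T3 (-0.027 against -0.009). In the longest class it was above without C2 (0.084 against 0.028), T2 (0.098 against -0.020), T3 (-0.058 against -0.12) or both C3 and T2 (0.085 against -0.007). Among all protein-coding genes under 700 bases 54.3% were highest in T1 and 50.2% lowest in C3, as were 25 and 17 of the 32 subunit genes of that class. Without T1 the median of the shortest class was 0.35 for the subunits and 0.25 for all protein-coding genes. Without C3 and T2 these were 0.65 and 0.61.

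**Figure D5:**
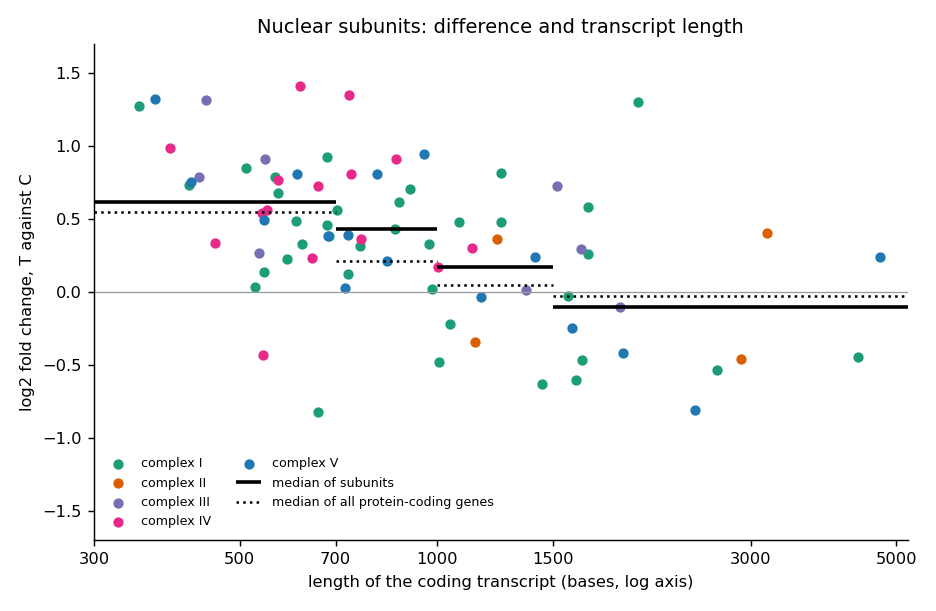
Log2 fold change of T against C for each of the 79 nuclear subunit genes tested, against the length of its coding transcript (log axis), coloured by complex. Black lines give the subunits' median in 4 length classes and dotted lines the median of all protein-coding genes in the class. Both sets of lines step down from the shortest class to the longest.

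Other genes serve the complexes without being part of them. Of 46 assembly factors 41 were tested, and 20 were above 0 and 21 below, with a median of -0.01, near the 51.1% above 0 among all genes. The factors of complex III had 4 of 5 above 0 (median 0.72) and those of complex I 5 of 15 (median -0.27). For complex I, Ndufaf3 had a log2 fold change of 1.91 ± 1.60 (SE) and Tmem186 -1.29 ± 1.24. Cox19 of complex IV, a copper-related factor of the intermembrane space, had 1.22 ± 0.55, and Coa7 0.84 ± 0.61. The factors Sdhaf2 (-0.77 ± 0.61) and Sdhaf4 (0.56 ± 0.70) of complex II and Atpaf1 (0.20 ± 0.53) and Atpaf2 (-0.62 ± 0.73) of complex V lay on both sides. Uqcc1 (0.94 ± 1.31) and Uqcc2 (1.46 ± 1.66) of complex III were above 0 with errors larger than their values. Of 16 tested genes of mtDNA expression, 6 were above 0 with a list median of -0.09. Elac2, which trims mitochondrial tRNAs out of the long transcript, had -1.08 ± 0.59 and Mgme1, a nuclease of mtDNA replication, 1.05 ± 0.60. None of the genes in these lists passed edgeR's or DESeq2's threshold.

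Enzymes of the tricarboxylic acid cycle, which feeds NADH and succinate to the complexes, lay on the lower side in T, with 12 of 13 below 0 and a median log2 fold change of -0.46. Fh1, the fumarase, was lower in every T library, at 291, 243 and 214 CPM in C and 126, 174 and 161 CPM in T (-0.70 ± 0.30). Suclg1, a subunit of succinyl-CoA ligase, was at 218, 209 and 132 CPM in C and 155, 103 and 103 CPM in T (-0.63 ± 0.36). Dlst was the gene above 0. None of the 13 passed edgeR's or DESeq2's threshold, and the germ cell markers given above lay on the same side, with 11 of 12 below 0.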

How the data were processed

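The deposited values are read counts per Ensembl gene, whole numbers with no scaling that the authors placed in one table, as the unequal column totals show. The submitters' processing notes name bcl2fastq and the build mm10. Aligner, counter and use of strand: not given in the sources used here. No RNA immunoprecipitation data were analysed here.

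Symbols, coordinates and lengths came from GENCODE M21 on GRCm38, which matched 51633 of 51912 identifiers (99.5%). Genes were kept with filterByExpr (minimum count 10, minimum total count 15), scaled by TMM and tested without covariates by edgeR 4.0.16, with Benjamini-Hochberg adjustment over 15240 genes at 0.05, after a test on simulated data. Errors are SE or SD over libraries. The SE is not given by edgeR itself and was taken as the absolute log2 fold change over the square root of the test's F statistic. RPKM use the union of exons. The coding transcript is the one with the longest coding sequence. Copies were sought among the annotated transcripts with BLAST 2.17.0. Alternatives used DESeq2 1.42.0, limma 3.58.1, other scalings, filters and sets of libraries, in R 4.3.3. Figures used matplotlib 3.10.9. Protein identity of isoforms was not run.

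The members and lists were chosen with earlier results of these data known. The genes named are all mtDNA-encoded and complex II genes, isoform pairs, chosen catalytic subunits, the 3 of smallest p and the highest per length in each other complex, and the 2 of smallest p in each list beside them. A complex I gene that this rule names is counted in the group values and is not reported here by itself. All other genes were named after their values were seen. Ndufa4 was counted in complex I by its symbol.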

Additional observations from a re-analysis of the deposited data

How the results depend on the processing

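No member was called in any of the 17 settings. Of 45 genes chosen by the rule and tested, 33 kept their sign in all the alternatives that gave a value. With limma-voom Uqcrfs1 was at -0.080 and Cox7b2 at 0.35 on the log2 scale, and with a replicate block on the library number they were at -0.075 and 0.20. Nothing in the labels says whether libraries of equal number share an animal, a litter or a day. The deviations of same-numbered libraries correlated at 0.18, 0.08 and -0.04, and those of unlike numbers at -0.18 to 0.064. Such values cannot decide whether the libraries are paired. The block called 0 genes, as did the fit without it. Without both C3 and T2, which leaves the 4 libraries of most genes, the mtDNA-encoded median was 0.15, with mt-Nd1 at -0.55, mt-Cytb at -0.17, mt-Co1 at -0.015, mt-Atp6 at -0.48 and Atp5g3 at -0.028. Leaving out one library at a time gave ranges of -0.28 to 0.34 for mt-Nd1, -0.024 to 0.58 for mt-Cytb, -0.23 to 0.41 for mt-Atp6, -0.54 to 0.74 for Uqcrb, -0.35 to 0.35 for Uqcrfs1, -0.25 to 0.45 for Cox5a, -0.19 to 0.48 for Cox7b, -0.92 to 0.62 for Cox7b2, -0.25 to 1.23 for Cox8c, -0.13 to 0.69 for Atp5g1 and -0.11 to 0.15 for Atp5g3. Without T1 the complex I median was -0.10. Over all genes, DESeq2 called 47 and edgeR without a filter 7, against 0. With the coding transcript as length, added after seeing the data, the mean of Cox4i1 was 324 RPKM and that of Atp5g3 265 RPKM. The cause of these shifts was not tested.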
